A study of Mus musculus with 2 samples.

Results

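Intra-aortic hematopoietic cluster cells (IAC) are the blood cells that bud from the wall of the dorsal aorta into its lumen. The 235 cells described here were those to which the authors' cell annotation gave the label IAC, out of 8405 cells in the deposited matrix. Of them, 128 came from the wild-type (Sp3+/+) library of 4451 cells and 107 from the SP3-null (Sp3-/-) library of 3954 cells. Both libraries were made from embryonic day 10.5 (E10.5) embryos of Sp3+/- parents on a mixed C57Bl6/J × B6129SF1/J background, and the null embryos were homozygous for the Sp3 tm1Sus germline allele. In both groups dorsal aorta regions were dissected, dissociated with collagenase, pooled by genotype, and sorted for cells with the endothelial surface proteins CD31, CD144 and ESAM, without the erythroid protein Ter119 and with low or no CD41, before droplet capture with a 3′ single-cell RNA kit. Neither group carried a transgene. Each genotype was captured once, as 1 library, so genotype, embryo pool and library cannot be told apart, no difference between genotypes has a replicate check, and no test was made. The intervals given are 95% intervals of counting error only.

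Blood stem and progenitor cells arise in the embryo by an endothelial-to-hematopoietic transition. Arterial endothelium gives rise to a precursor stage, pre-hemogenic endothelium (pre-HE), and then to hemogenic endothelium (HE), which depends on RUNX1. HE cells round up, lose endothelial junctions and form clusters attached to the aortic wall. Cluster cells acquire CD45 and other blood proteins while some still carry endothelial ones, and they include pre-hematopoietic stem cells as well as progenitors with lymphoid and myeloid potential. SP3 is a broadly expressed zinc finger protein of the SP/KLF family that binds GC boxes in promoters.

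IAC were the most deeply sampled of the 9 annotated classes. Values are given for the wild-type library first and the SP3-null library after it. The median number of unique transcript counts (UMIs) per IAC was 31009 (range 3348 to 78192) and 30343 (2477 to 75713), against 17656 and 21366 in HE. Summed over cells, the IAC profiles held 4216392 and 3484674 UMIs. Of the cell barcodes, 5 occurred in both libraries, 1 of them in an IAC. Levels are CPM, the UMIs of a gene per 1000000 UMIs of these sums, and ratios between libraries or classes are log2 ratios of CPM. A level is compared only for the same gene, since UMI counts from 3′ ends are not scaled to length.

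The 5 genes that mark the class, Ptprc, Myb, Kit, Coro1a and Rac2, were checked first. At least 2 of the 5 were detected in each of the 235 cells, and all 5 were detected in 57 of the 128 cells (44.5%) and 53 of the 107 cells (49.5%). In HE, no cell of either library had all 5, and 12 of 59 and 10 of 40 cells had none. Their summed level was 898 and 908 CPM in IAC, 249 and 305 CPM in HE, and between 22.9 and 46.1 CPM in the other 7 classes. The label therefore was not contradicted by its markers, although 7 cells led by macrophage genes and 12 shallow cells led by mitochondrial genes were among the 235.

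Ptprc, which encodes the pan-leukocyte phosphatase CD45, had 294 UMIs in 80 wild-type cells and 301 UMIs in 73 SP3-null cells, or 69.7 CPM (62.0 to 78.2) and 86.4 CPM (76.9 to 96.7). HE held 0 Ptprc UMIs in the wild-type library, so that the level in IAC was at least 26.1-fold higher, and 5 UMIs in the SP3-null library. Rac2, the blood cell Rac GTPase, stood at 157 CPM (146 to 170) and 185 CPM (171 to 199). HE held 0 and 1 Rac2 UMIs, giving at least a 59.1-fold higher level in the wild type and a log2 ratio of 7.37 (4.89 to 12.67) in the SP3-null library. These 2 genes were close to absent from the other 7 classes as well. The plot of the 5 markers by class shows the contrast with Kit.

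Coro1a, an actin-binding protein of leukocytes, stood at 314 and 272 CPM in IAC and at 50.7 and 53.6 CPM in HE. Myb, a transcription factor required for definitive blood formation, stood at 210 and 200 CPM against 92.4 and 106 CPM in HE. Kit, the stem cell factor receptor, differed least: it had 147 and 165 CPM in IAC and 106 and 138 CPM in HE, and the log2 ratio of IAC over HE in the SP3-null library, 0.26, had an interval that included 0 (-0.03 to 0.55). Kit was also detected in 36.4% of the 508 wild-type and 39.4% of the 566 SP3-null Wnt-high venous endothelial (VE) cells, whose median depths were 14475.5 and 19230 UMIs, against 91.4% and 93.5% of IAC. Thinned to 5000 UMIs per cell, these shares were 14.1% and 13.2% in Wnt-high VE and 50.8% and 56.3% in IAC. The marker set thus ran from genes already present in HE and, for Kit, in endothelium, to genes that were near 0 before the cluster stage.

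Depth mattered for the share of cells with a UMI. Ptprc was detected in 62.5% of wild-type and 68.2% of SP3-null IAC, but in 27.0% and 26.2% once each cell was thinned to 5000 UMIs (126 and 103 cells deep enough), and in no Wnt-high VE cell. Rac2 was detected in 68.8% and 66.4% of IAC, in 35.7% and 40.8% after thinning, and in 0.197% and 0.177% of Wnt-high VE cells. Coro1a was detected in 97.7% and 96.3% of IAC (thinned 76.2% and 68.0%) and in 5.31% and 3.89% of Wnt-high VE cells. Absence of a Ptprc UMI in a single cell therefore did not show absence of the transcript.

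**Figure D1:**
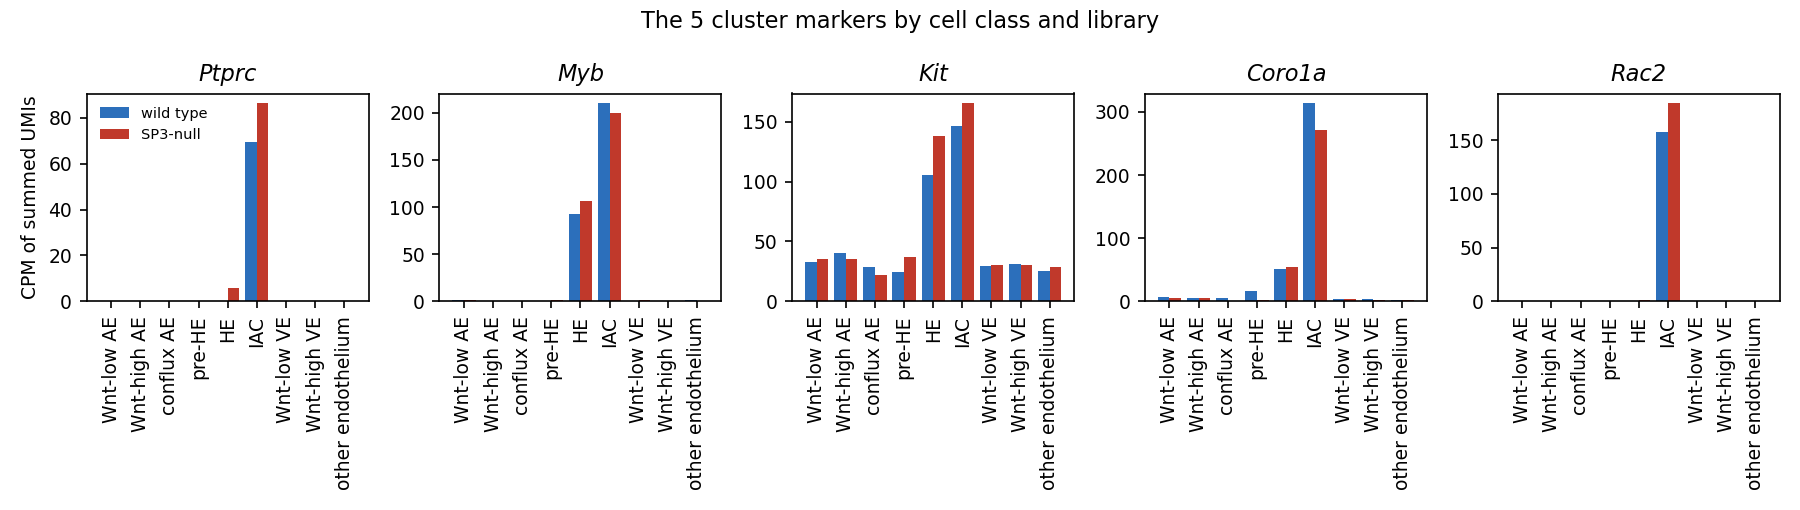
CPM of the summed UMIs (vertical axis) of Ptprc, Myb, Kit, Coro1a and Rac2 in the 9 annotated classes, with 1 bar per library and no error bars (AE, arterial endothelium). Rac2 and Ptprc stand near 0 outside IAC, Myb and Coro1a are also present in HE, and Kit is present in every class, with HE at 106 and 138 CPM and IAC at 147 and 165 CPM.

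Because SP3 binds GC boxes, the promoters of the marker genes are shown (RefSeq, GRCm38.p6, from 250 bases before to 50 after the first listed start; Rac2 is not shown). Capitals mark the GC box GGGCGG on either strand, read as CCGCCC on the other strand. The Ptprc promoter (chr1:138175256-138175555, minus strand) held none, Myb (chr10:21160935-21161234, minus strand) held 3, of which 2 overlapped, Kit (chr5:75574737-75575036, plus strand) held 1 and Coro1a (chr7:126704767-126705066, minus strand) held 2.
Ptprc: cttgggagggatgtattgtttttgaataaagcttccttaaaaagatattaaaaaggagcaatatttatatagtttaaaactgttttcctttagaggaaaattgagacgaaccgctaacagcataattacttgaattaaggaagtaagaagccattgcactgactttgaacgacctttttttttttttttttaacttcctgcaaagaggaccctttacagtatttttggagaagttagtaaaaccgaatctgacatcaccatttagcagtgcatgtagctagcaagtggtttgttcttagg
Myb: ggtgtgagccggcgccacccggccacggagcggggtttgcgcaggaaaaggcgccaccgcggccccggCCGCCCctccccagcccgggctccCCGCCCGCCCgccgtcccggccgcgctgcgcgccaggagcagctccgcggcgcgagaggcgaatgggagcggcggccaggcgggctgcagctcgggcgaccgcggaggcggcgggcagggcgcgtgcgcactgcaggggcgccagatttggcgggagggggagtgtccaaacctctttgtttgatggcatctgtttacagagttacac
Kit: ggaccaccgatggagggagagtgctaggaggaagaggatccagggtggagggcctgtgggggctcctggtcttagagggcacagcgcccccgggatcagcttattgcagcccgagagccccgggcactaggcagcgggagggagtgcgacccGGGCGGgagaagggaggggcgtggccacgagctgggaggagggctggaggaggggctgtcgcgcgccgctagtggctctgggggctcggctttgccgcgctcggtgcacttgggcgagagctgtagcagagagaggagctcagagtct
Coro1a: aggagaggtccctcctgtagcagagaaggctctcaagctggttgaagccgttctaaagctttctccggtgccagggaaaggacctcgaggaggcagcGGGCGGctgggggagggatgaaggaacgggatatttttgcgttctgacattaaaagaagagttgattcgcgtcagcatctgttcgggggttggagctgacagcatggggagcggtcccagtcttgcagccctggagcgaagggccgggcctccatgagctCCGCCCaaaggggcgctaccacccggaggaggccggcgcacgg
Of 27025 genes with a promoter in the table, 35.9% had a GC box, as did 68.6% of the 5373 matched genes with at least 100 UMIs in IAC. Of the 2-fold lower genes in SP3-null IAC described below, 9 of 13 with a promoter had a GC box, and of the 2-fold higher ones 3 of 6. These are matches to letters and were not tested.

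Compared with HE in the same library, IAC had higher levels of genes of the leukocyte cytoskeleton and of granule and signalling proteins of myeloid cells, and lower levels of endothelial, arterial and extracellular matrix genes. Among 7545 genes with at least 100 UMIs over HE and IAC, 352 (4.67%) were at least 2-fold higher and 521 (6.91%) at least 2-fold lower in wild-type IAC, and 369 (4.89%) and 609 (8.07%) in SP3-null IAC. In both libraries 216 genes were 2-fold higher, 399 were 2-fold lower, and 3 differed in opposite directions. The gene lists below count members from 20 UMIs, and a member without UMIs in HE counts as 2-fold higher. The figures for genes with at least 100 UMIs are therefore no baseline for the list counts. Whether a list differs from all genes in its share of 2-fold members was not tested. The authors assigned the classes from expression, so these values describe the class and are not a test.

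Beside Ptprc and Rac2, the genes with the largest differences included receptors and granule proteins of myeloid cells. Fcer1g, an adaptor of immune receptors, stood at 192 and 216 CPM in IAC, with 0 and 2 UMIs in HE. Tyrobp, a second such adaptor, stood at 110 and 119 CPM, with 1 and 0 UMIs in HE. Prtn3, a serine protease of neutrophil granules, stood at 143 and 150 CPM against 3.56 and 5.58 CPM in HE, and Mpo, the granule peroxidase, at 81.3 and 74.3 CPM against 2.67 and 1.12 CPM. Rgs18, a regulator of G protein signalling in platelets and myeloid cells, stood at 68.8 and 70.9 CPM with 0 UMIs in either HE group, at least 25.8-fold and 21.2-fold higher. Of the 22 measured genes of the myeloid list, 21 were at least 2-fold higher than in HE in both libraries, and their sum was 1163 and 1209 CPM against 260 and 255 CPM.

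Regulators of Rac and actin in blood cells followed. Of 34 measured members, 24 were 2-fold higher in both libraries and none was 2-fold lower, and the sum was 2127 and 2188 CPM against 657 and 750 CPM in HE. Plek, the platelet and leukocyte protein pleckstrin, stood at 49.6 and 60.3 CPM with 1 and 0 UMIs in HE. Dock2, an exchange factor that activates Rac, stood at 49.3 and 37.6 CPM against 9.78 and 17.9 CPM. Was, the Wiskott-Aldrich syndrome protein that drives actin branching, stood at 72.6 and 67.7 CPM against 28.4 and 16.7 CPM. The contractile genes that HE expressed went the other way: smooth muscle actin, Acta2, stood at 32.5 and 27.5 CPM against 247 and 337 CPM, and Tagln, which encodes the actin-binding transgelin, at 17.1 and 29.3 CPM against 262 and 239 CPM.

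The blood transcription factors did not differ as a block. Of 30 measured, 8 were 2-fold higher and 3 were 2-fold lower in both libraries, and the sum differed little, at 2572 and 2493 CPM against 2354 and 2277 CPM. Ikzf1, the lymphoid and myeloid zinc finger factor Ikaros, stood at 74.0 and 70.3 CPM against 6.22 and 7.82 CPM, and Irf8, a factor of monocyte and dendritic cell development, at 14.2 and 19.8 CPM with 0 UMIs in HE. Spi1, the myeloid factor PU.1, stood at 164 and 181 CPM against 93.3 and 107 CPM. The repressor Gfi1, which in HE helps to shut off endothelial genes, was lower, at 27.0 and 29.6 CPM against 72.9 and 72.6 CPM, while its paralog Gfi1b stood at 17.3 and 11.2 CPM against 0.889 and 3.35 CPM. Gata2, required for the making of stem cells, stood at 40.3 and 43.0 CPM against 92.4 and 87.1 CPM. Lmo2, the bridging factor of blood complexes, stood at 228 and 223 CPM against 130 and 123 CPM, and Tal1, its partner, at 51.0 and 50.5 CPM against 78.2 and 82.6 CPM.

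Stem cell regulators also split. Hlf, which marks blood stem cells and their embryonic precursors, stood at 126 and 124 CPM in IAC against 64.0 and 61.4 CPM in HE. Mecom (EVI1), a factor needed for stem cell maintenance, stood at 66.9 and 64.0 CPM against 235 and 210 CPM, and Procr, the endothelial protein C receptor that marks stem cells, at 57.9 and 54.8 CPM against 155 and 89.3 CPM. Of the 20 genes of this list, 1 was 2-fold higher and 4 were 2-fold lower in both libraries.

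On the surface, 9 of 25 measured genes were 2-fold higher in both libraries and 3 were 2-fold lower. Cd47, the signal that blocks phagocytosis, stood at 457 and 508 CPM against 192 and 246 CPM in HE. Spn, which encodes CD43, stood at 31.1 and 28.1 CPM against 9.78 and 15.6 CPM, and Cd34 at 439 and 389 CPM against 309 and 307 CPM. Cd44, the hyaluronan receptor, stood at 94.2 and 94.1 CPM against 103 and 104 CPM, with both intervals of the log2 ratio including 0 (-0.43 to 0.18 and -0.48 to 0.21). Among cytokine receptors, Csf3r, the granulocyte colony-stimulating factor receptor, stood at 16.8 and 15.2 CPM with 1 UMI in each HE group. Of 27 measured cytokine genes, 6 were 2-fold higher and 1 was 2-fold lower in both libraries.

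The endothelial program stood far lower but was not gone. Of 30 pan-endothelial genes, 23 were 2-fold lower than in HE in both libraries and none was higher, and the sum was 1996 and 1854 CPM against 6044 and 5104 CPM. Cdh5, which encodes VE-cadherin (CD144), one of the sorted proteins, stood at 151 and 171 CPM against 582 and 509 CPM, and Pecam1 (CD31) at 68.5 and 83.2 CPM against 227 and 217 CPM. Of 21 arterial genes, 19 were 2-fold lower in both libraries. Gja4, the arterial connexin 37, stood at 18.7 and 12.6 CPM against 387 and 199 CPM, and Edn1, the vasoconstrictor endothelin, at 2.37 and 0.574 CPM against 134 and 84.9 CPM. Of 8 Notch target genes, 7 were 2-fold lower in both, and Hey2 had 2 and 0 UMIs in IAC. Of 15 genes of the vascular basement membrane, 13 were 2-fold lower in both, such as the collagen gene Col4a1, at 139 and 145 CPM against 574 and 535 CPM.

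Some of the lowest genes are known from neurons rather than vessels. Tubb3, the neuronal tubulin, had 0 UMIs in IAC and 80 and 61 UMIs in HE, at least 99.9-fold and 79.1-fold lower, and Fabp7, a fatty acid-binding protein of glia, had 0 UMIs in IAC and 18 and 170 in HE. Of 9 measured genes of the neural list, 8 were 2-fold lower in both libraries, and its sum was 67.4 and 43.0 CPM in IAC against 677 and 834 CPM in HE. The sum was not particular to HE: it lay between 354 and 1047 CPM in each of the other endothelial classes. The part of other cell types in the HE class in these ratios was not tested. Proliferation differed less: of 25 S phase and 25 mitosis genes none was 2-fold different in both libraries, and the mitosis sum was 3184 and 2972 CPM against 3196 and 2345 CPM in HE.

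**Figure D2:**
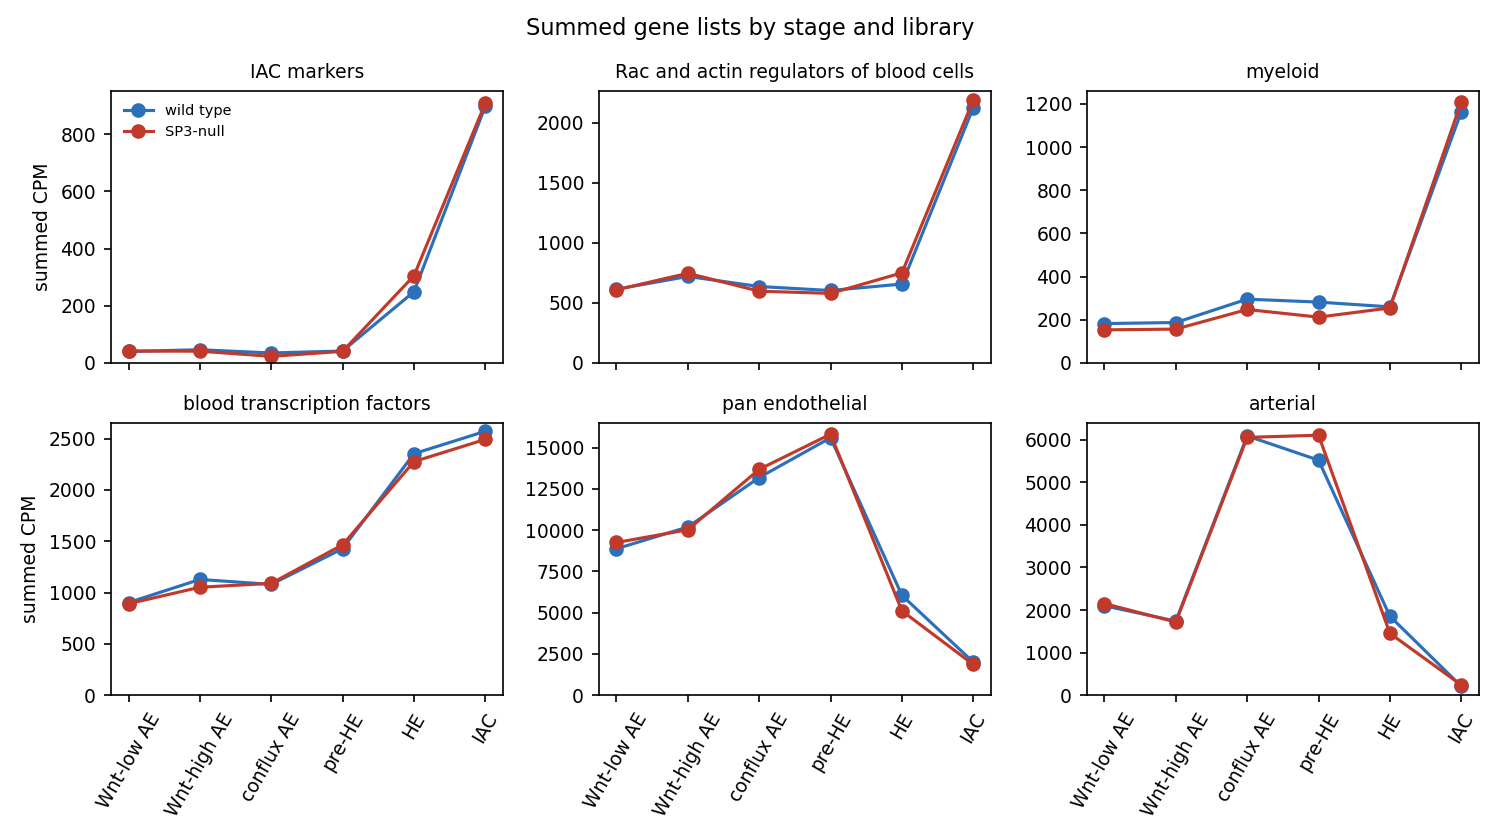
Summed CPM of 6 gene lists (vertical axes, each from 0) along 6 annotated classes, with 1 line per library and no error bars. The Rac and actin list and the myeloid list change little up to HE and stand at 2127 and 2188 CPM and at 1163 and 1209 CPM in IAC, while the pan-endothelial and arterial lists are highest in conflux AE or pre-HE and lowest in IAC.

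Across all 9 classes, 83 of 6743 genes (1.23%) stood in IAC at 4-fold or more of their level in every other class, in both libraries. Those with the largest ratios were Rac2, Tyrobp, Fcer1g, Prtn3, Mpo, Plek, Rgs18, Lst1, Coro2a, C1qb, Cd52, C1qc, Ccl3, Cd69 and Ptprc. C1qb and C1qc are complement genes of macrophages, and most of their UMIs came from the 7 cells described next. Rac2 stood at 59.1-fold and 54.8-fold of the next class when that class was set to no less than 3 UMIs. In contrast, Runx1 itself stood at 283 and 289 CPM in IAC and 356 and 242 CPM in HE, and at 3.90 CPM or less in every other class.

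The 235 cells were not uniform. Clustering of both libraries together (Ward linkage on 10 principal components, into 4 groups) gave a group of 132 cells (70 wild-type, 62 SP3-null), a group of 84 (48 and 36), a group of 12 (7 and 5) and a group of 7 (3 and 4). These are not classes of the study, and the genes that lead them describe the clustering. The first held 54.7% of wild-type and 57.9% of SP3-null IAC and was led by the contractile genes Tagln and Myl9, the arterial connexin Gja4, Stmn2, a tubulin-binding protein known from neurons, and Crip2, and also by Procr, Vwf and Gfi1. The second held 37.5% and 33.6% and was led by Cpa3, Plac8, Il12a, Cd69 and Rgs18. Cpa3, a mast cell protease, rested on 7 cells of the second group. Median depth was 28713 UMIs in the first and 34545 in the second, so a gap in depth of this order accompanied the split.

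The first group retained the endothelial side of the program. Over both libraries Cdh5 stood at 266 CPM in it and at 25.2 CPM in the second, Procr at 97.2 against 6.22 CPM, Mecom at 107 against 12.1 CPM, and Gfi1 at 48.1 against 4.04 CPM. The stem cell factor Hlf stood at 157 against 90.8 CPM. The second group carried the leukocyte side, with Rac2 at 311 against 53.7 CPM, Fcer1g at 289 against 62.3 CPM, Prtn3 at 259 against 68.6 CPM and Mpo at 145 against 29.1 CPM. Genes common to both were Runx1, at 289 and 296 CPM, and Ptprc, at 65.7 and 73.7 CPM, whose log2 ratio of the second over the first had an interval that included 0 (-0.09 to 0.42). CD45 transcript level thus did not separate the groups, whereas Rac2 did (log2 ratio 2.54, 2.32 to 2.75).

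UMIs of both programs were found in the same cells. Ptprc and Cdh5 were detected together in 53 of the 128 cells (41.4%, exact interval 32.8% to 50.4%) and 51 of the 107 (47.7%, 37.9% to 57.5%), and only 3 and 6 cells had neither. Hlf and Mecom were detected together in 49.2% and 50.5% of cells. Mpo and Procr, which lay at opposite sides of the split, were detected together in 25.8% (18.5% to 34.3%) and 14.0% (8.06% to 22.1%). These intervals overlapped. No doublets were called and free RNA was not estimated, and each endothelial class of this capture holds Cdh5 RNA, so 1 or a few UMIs in a cell do not show that the cell expressed the gene.

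The 2 small groups stood apart for other reasons. The group of 12 had a median of 6175.5 UMIs and a median mitochondrial share of 17.4%, was led by Gm42418 and mitochondrial genes, and is left unnamed. The group of 7 was macrophage-like: Mrc1, C1qa, C1qb, C1qc, Dab2, F13a1 and Maf, all on the macrophage list, were among its 10 leading genes, with C1qa at 880 CPM against 1.34 CPM in the other IAC. In all, 5 wild-type and 7 SP3-null IAC had at least 3 UMIs of macrophage-defining genes (C1qa, C1qb, C1qc, Csf1r, Mrc1 and Adgre1). At least 90 such UMIs were found in 4 wild-type IAC, while the group held 3 wild-type cells. The group thus did not hold every macrophage-like cell, and levels of the larger groups include such cells. The antibodies listed for the sort did not include one to CD45. In the 123 and 100 IAC left without these cells, Tyrobp stood at 63.0 and 65.2 CPM, Fcer1g at 147 and 157 CPM, Rac2 at 150 and 168 CPM, Ptprc at 59.2 and 70.8 CPM and the myeloid sum at 976 and 980 CPM. C1qb and C1qc were then left with 1 UMI each in the wild type and 0 in the SP3-null library. Both are among the genes that chose the cells left out, so these low counts follow from the choice. With such cells left out of every class, 61 genes in place of 83 stood at 4-fold or more in IAC.

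**Figure D3:**
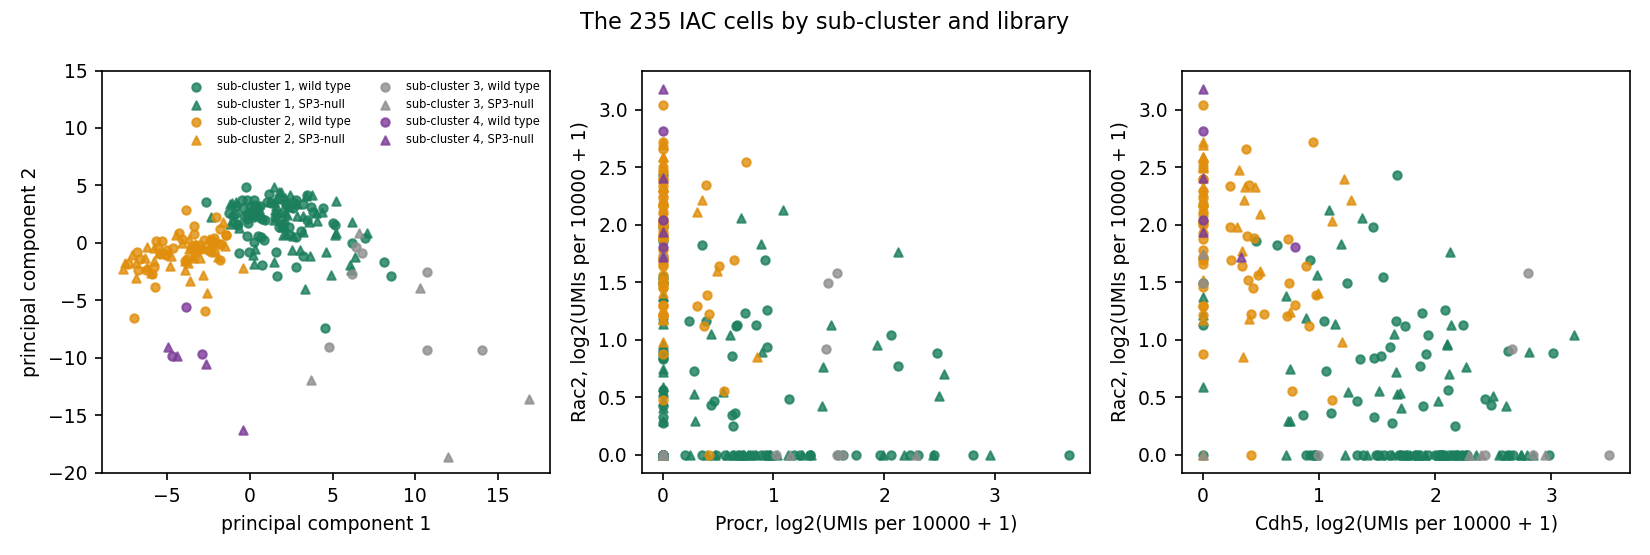
Each point is 1 of the 235 IAC, coloured by sub-cluster, with circles for the wild-type and triangles for the SP3-null library. The left panel shows the first 2 principal components (no unit), and the other panels show Rac2 against Procr and against Cdh5 as log2(UMIs per 10000 + 1). Cells of sub-cluster 2 lie at high Rac2 and low Procr and Cdh5, cells of sub-cluster 1 mostly the reverse, and both libraries fall in both.

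The SP3-null library was then set against the wild type. IAC made up 128 of 187 and 107 of 147 of the HE and IAC cells, and the groups of 132 and 84 took up similar shares of IAC in both libraries. Among 6743 genes with at least 100 UMIs in IAC, 12 (0.178%) were at least 2-fold higher and 17 (0.252%) at least 2-fold lower in SP3-null IAC. The median log2 ratio was -0.02 and the central 95% of genes lay between -0.57 and 0.45. The counting interval lay above 0 for 461 genes and below 0 for 642. All 5 markers stood within these bounds: Ptprc 0.31 (0.07 to 0.55), Rac2 0.23 (0.07 to 0.39), Kit 0.17 (0.00 to 0.34), Myb -0.07 (-0.21 to 0.08) and Coro1a -0.21 (-0.33 to -0.08). Sp3 stood at 53.6 and 42.2 CPM (log2 ratio -0.35, -0.66 to -0.04). The 3′ reads do not show whether these transcripts carry the targeted sequence, so this level does not check the genotype labels.

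**Figure D4:**
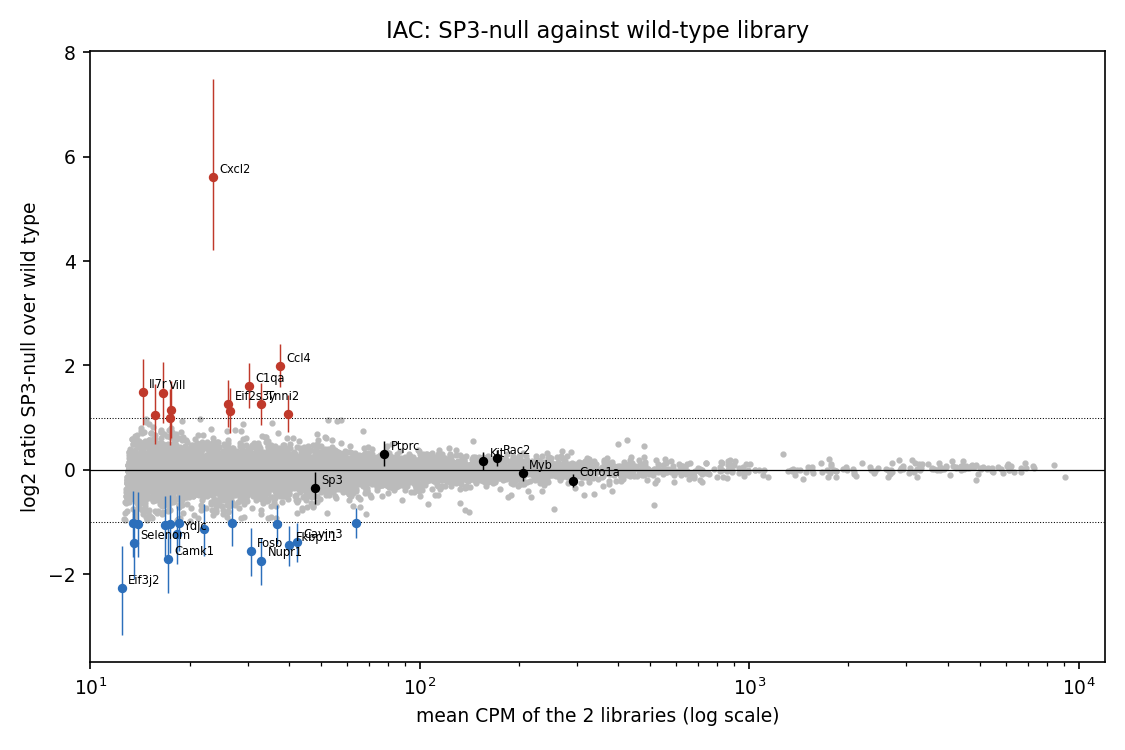
Each point is 1 of 6743 genes, with its mean CPM over the 2 libraries (log scale) against its log2 ratio of SP3-null over wild-type IAC. Bars are 95% counting intervals, dotted lines mark 2-fold, genes past 1.2 on the log2 scale are named, and the 5 markers and Sp3 are black. Cxcl2 stands alone at 5.61, and the markers lie between -0.21 and 0.31.

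Several of the genes highest in SP3-null IAC were macrophage genes carried by a few cells. Cxcl2, a neutrophil chemokine, had 4 UMIs in 2 wild-type cells and 161 UMIs in 2 SP3-null cells, and all 161 lay in the macrophage-like group. Ccl4, a chemokine, had 64 and 210 UMIs, of which 17 and 184 lay in that group, and without the cells with at least 3 UMIs of macrophage-defining genes, a setting chosen after the data were seen, its log2 ratio was -0.20 in place of 1.99. C1qa went from 63 to 159 UMIs, with 54 and 158 in that group, and Csf1r, the macrophage growth factor receptor, stood at a log2 ratio of 1.00 with all cells and -0.37 without the cells with macrophage UMIs. The macrophage list summed to a log2 ratio of 0.32 (0.21 to 0.43) with all cells and -0.36 without these. Csf1r and other members of this list are the macrophage-defining genes by which the cells were left out. The ratios of Csf1r and of the list without those cells are therefore not independent of that choice.

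Other higher genes had most of their UMIs outside the macrophage-like group. Il7r, the interleukin-7 receptor of early lymphoid cells, had 32 UMIs in 15 wild-type cells and 74 UMIs in 18 SP3-null cells (log2 ratio 1.48, 0.87 to 2.13), with the 3 highest cells holding 43.8% and 63.5% of its UMIs. Its ratio was 1.33 (0.51 to 2.20) in the first sub-cluster and 1.64 (0.67 to 2.70) in the second. Over the alternative choices of scaling, depth and cells it ran from 0.04 to 2.29. Hes1, a Notch target and repressor, stood at 10.2 and 21.2 CPM (1.06, 0.50 to 1.64), while its ratio in HE was 0.55 (-0.19 to 1.31). Tnni2, a troponin of fast muscle, went from 82 UMIs in 51 cells to 162 UMIs in 61 cells (1.26, 0.87 to 1.66), and Zbtb18, a zinc finger repressor, from 46 UMIs in 36 cells to 84 UMIs in 51 cells (1.14, 0.61 to 1.70). Notch1, below 2-fold, stood at 40.6 and 62.6 CPM (0.63, 0.33 to 0.92). The lymphoid list, which holds Il7r and Notch1, had 5 members above and 6 below 0. Its median was -0.005 and its sum ratio 0.26 (0.11 to 0.40). Notch targets had 3 members above and 2 below 0, with a sum ratio of 0.20 (-0.02 to 0.42).

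Among the lower genes were several that IAC shared with endothelium. Kdr, the receptor VEGFR2, had 210 UMIs in 73 wild-type cells and 84 UMIs in 45 SP3-null cells, or 49.8 and 24.1 CPM (log2 ratio -1.05, -1.43 to -0.68). In HE of the same libraries Kdr stood at 194 and 181 CPM (-0.10, -0.40 to 0.20). Crip2, a LIM protein of vessels, stood at 36.0 and 17.8 CPM (-1.02). In the 91 and 82 cells left without macrophage or neural UMIs, Kdr had a ratio of -0.22 and Crip2 of -0.14, so that neither was 2-fold lower, and with cells thinned to equal depth Kdr had -0.56. Neural genes were also present in every endothelial class, so the cells left out cannot be read as another cell type alone. Cavin3, a caveola protein, stood at 61.4 and 23.5 CPM (-1.38), and at 335 and 215 CPM in HE (-0.64, -0.89 to -0.38). Nupr1, a stress-response cofactor, stood at 50.8 and 15.2 CPM (-1.74, -2.20 to -1.30) and was also lower in SP3-null HE, at 81.5 against 239 CPM. Fkbp11, a chaperone of the secretory pathway, had 248 UMIs in 94 cells and 75 UMIs in 46 cells (-1.45, -1.84 to -1.07), with ratios of -1.41 and -1.40 in the 2 large sub-clusters, and at 35.6 and 17.9 CPM in HE (-0.99, -1.93 to -0.12). Cavin3 and Fkbp11 stood lower in the SP3-null library in each of the 9 classes, as did Eif3j2, with -1.37 in HE (-3.45 to 0.32). The lowest ratio in IAC, that of Eif3j2 (-2.26), is uncertain because the gene has a near-identical copy, Eif3j1.

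Immediate early and heat shock genes, which cells switch on rapidly after signals or stress, were lower together. All 14 measured members lay below 0, with a median log2 ratio of -0.41 beside -0.02 over all genes, the counting interval lay below 0 for 13 of them, and the sum stood at 7069 and 6149 CPM (-0.20, -0.23 to -0.18). Fosb stood at 45.8 and 15.5 CPM (-1.56, -2.03 to -1.12), Jun at 631 and 395 CPM (-0.68, -0.77 to -0.58), and Jund at 437 and 329 CPM (-0.41, -0.52 to -0.30). Fos, Egr1 and Hspa1a, named after their values were seen, stood at 179 and 102 CPM, 161 and 104 CPM, and 110 and 87.0 CPM. In HE the list sum differed the other way, at 4649 and 4969 CPM (0.10, 0.04 to 0.15), and 11 of 14 members lay above 0. HE was the exception: in every other class the sum was lower in the SP3-null library, as in IAC. These sums ranged from 4143 and 3726 CPM in Wnt-low AE to 4396 and 4389 CPM in Wnt-low VE, where they differed least. Fos had a ratio of 1.01 (0.50 to 1.52) in HE and Egr1 1.47 (0.66 to 2.34). The difference between IAC and HE was not tested.

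Interferon-stimulated genes differed in the opposite sense. Of 15 measured members 13 lay above 0, 5 of them with their counting interval, the median was 0.27, and the sum stood at 1704 and 2121 CPM (0.32, 0.27 to 0.36). Membrane proteins of the IFITM family, which restrict viral entry and are present in early germ and stem cells, carried most of it: Ifitm1 stood at 405 and 556 CPM (0.46, 0.36 to 0.55), Ifitm3 at 331 and 468 CPM (0.50, 0.39 to 0.60) and Ifitm2 at 515 and 591 CPM (0.20, 0.11 to 0.29). Bst2, which tethers virions, stood at 104 and 121 CPM (0.23, 0.03 to 0.42). Ifitm3 had a ratio of 0.73 (0.61 to 0.86) in the first sub-cluster and -0.19 (-0.42 to 0.03) in the second, and the sum of the list had 0.40 (0.34 to 0.45) and 0.09 (-0.00 to 0.17). In HE the sum was 1541 and 1533 CPM. Every class other than HE summed higher in the SP3-null library, so the higher sum was not particular to IAC. For Wnt-high AE the wild type held 631 CPM and the SP3-null library 774 CPM. The gap was smallest for pre-HE, with 1926 CPM in the wild type against 1959 CPM.

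**Figure D5:**
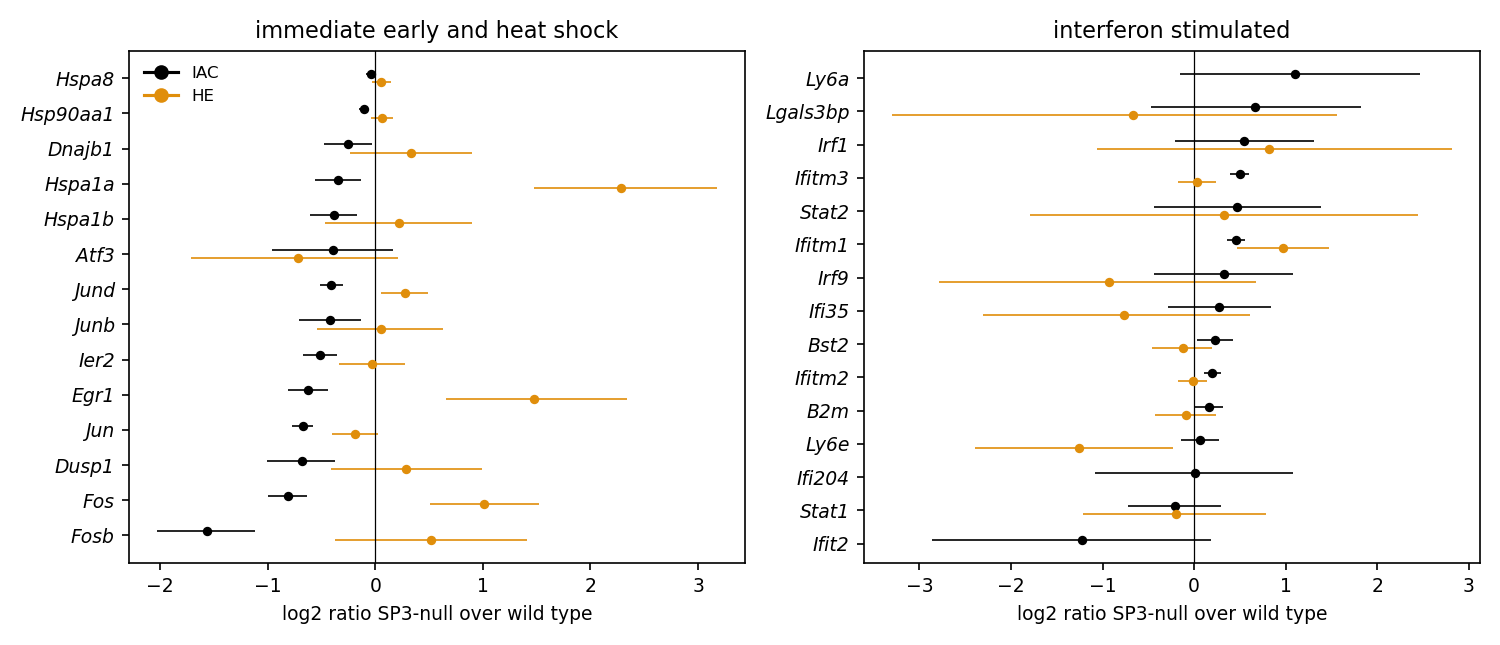
Log2 ratio of SP3-null over wild type (horizontal axis) with its 95% counting interval for each measured gene of 2 lists, in IAC (black) and in HE (orange), where HE points with an unbounded or very wide interval are left out. All 14 immediate early and heat shock genes lie below 0 in IAC, while Fos (1.01) and Egr1 (1.47) lie above 0 in HE, and 13 of 15 interferon-stimulated genes lie above 0 in IAC.

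For the gene groups that define the class, the libraries stood close. The blood transcription factors had 11 members above and 19 below 0, a median of -0.03 and a sum ratio of -0.04 (-0.09 to -0.00). The regulators of Rac and actin had 21 above and 13 below (sum 0.04, -0.00 to 0.09), and the myeloid genes 14 above and 8 below (sum 0.06, -0.00 to 0.12). Single members departed further. Dock2 had a ratio of -0.39 (-0.72 to -0.07), the ETS factor Fli1 -0.48 (-0.68 to -0.28), and Cdk6, a G1 kinase, -0.39 (-0.60 to -0.18). The platelet chemokine Pf4, a megakaryocyte gene also found in macrophages, had -0.79 (-1.23 to -0.36), with 51 of its 140 and 32 of its 67 UMIs in the macrophage-like group, and -1.04 without the cells with macrophage UMIs.

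Vascular lists mostly lay below 0. Pan-endothelial genes had 8 members above and 22 below, with a sum ratio of -0.11 (-0.15 to -0.06), and basement membrane genes 3 above and 11 below (-0.16, -0.24 to -0.09). Venous genes had all 9 measured members below 0 and a sum ratio of -0.42 (-0.60 to -0.23). Without the cells with macrophage UMIs these ratios were -0.08, -0.14 and -0.58. When cells with neural UMIs were left out as well, they changed sign, to 0.11, 0.16 and 0.04. At least 3 neural UMIs were found in 33 wild-type and 20 SP3-null IAC. The neural list stood at 81.3 CPM in the first sub-cluster and 23.3 CPM in the second. Every endothelial class held it at 354 CPM or more. Leaving out these cells thus cannot be read as taking out another cell type alone. The neural list itself had a sum ratio of -0.65 (-0.94 to -0.36), and its part in the vascular ratios was not tested. Arterial genes had a median of -0.20 but a sum of 0.20 (0.06 to 0.34), opposite in sign, with Sox17, an arterial SOX factor, at 8.78 and 17.5 CPM and the connexin Gja4 at 18.7 and 12.6 CPM. Klf2, induced by flow, stood at 150 and 115 CPM (-0.38, -0.56 to -0.19), with a ratio of -1.08 (-1.37 to -0.79) in the first sub-cluster and 0.15 (-0.13 to 0.43) in the second. Of its 631 and 402 UMIs, 62 and 65 lay in the macrophage-like group. The flow response list, which holds Klf2, summed lower in the SP3-null library in every class. Its sums were 208 and 166 CPM in IAC, 900 and 672 CPM in pre-HE and 785 and 783 CPM in conflux AE.

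Mitosis genes showed opposite differences in the 2 large sub-clusters. Over all IAC, 6 mitosis genes lay above and 19 below 0 (sum -0.10, -0.14 to -0.06), but the sum ratio was 0.13 in cells with Xist and no Y-linked UMIs and 0.020 with cells thinned to equal depth. In the first sub-cluster 20 of 25 lay above 0 (sum 0.17, 0.12 to 0.23), and in the second 22 of 25 lay below (-0.35, -0.40 to -0.29). S phase genes did not follow this pattern. In the first, 10 of 25 lay above 0 (sum -0.015, -0.07 to 0.04), and in the second 19 of 25 did (0.15, 0.09 to 0.21). Mki67, a marker of cycling cells, had ratios of 0.38 (0.15 to 0.61) and -0.56 (-0.83 to -0.31), and Top2a, the replication and mitosis topoisomerase, 0.35 (0.19 to 0.50) and -0.43 (-0.60 to -0.27). Cdkn1c, the imprinted inhibitor p57, stood at 343 and 507 CPM over all IAC (0.56, 0.46 to 0.66), nearly all of it in the first sub-cluster, at 592 and 862 CPM. Its ratio was -0.12 in the second, 0.18 and 0.25 in cells with Xist alone and with Y-linked UMIs alone, and 0.99 without cells with macrophage or neural UMIs. Cells were assigned to sub-clusters without S phase and mitosis genes, and the difference between the sub-clusters was not tested.

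The split of IAC by sex-linked transcripts also differed. UMIs of Xist, the RNA of the inactive X chromosome, and none of the Y-linked genes were found in 63 of 128 wild-type and 29 of 107 SP3-null IAC, and the reverse in 40 and 70. The log2 ratio of Xist was -0.75 (-0.89 to -0.62), and the Y-linked genes Eif2s3y and Ddx3y, 1.26 and 1.07, were among the 12 higher genes. The other classes of the same libraries did not all differ in this direction. Xist stood at 692 and 308 CPM in HE but at 354 and 689 CPM in conflux AE. The Y-linked sum stood at 32.9 and 117 CPM in HE but at 91.6 and 87.6 CPM in conflux AE. The part of the embryo pools in these differences was not tested. The part of sex in the other ratios was not tested. Within cells with Xist alone and within cells with Y-linked UMIs alone, 6 of the 12 higher genes stayed 2-fold higher in each, where Eif2s3y and Ddx3y have no value in cells with Xist alone. Of the 13 lower genes that the rule for named genes took, 7 and 10 stayed 2-fold lower.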

How the data were processed

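Single-cell RNA libraries (10x Chromium 3′ v3) of wild-type and SP3-null E10.5 dorsal aorta endothelium were analysed. The deposited matrix holds UMI counts per gene and cell, which the authors made with Cell Ranger (version not given in the sources used here) on mm10 (GRCm38, per the submitters' processing notes). The deposited cell table gives the mitochondrial share as a fraction of each cell's UMIs, and the class of each cell. The authors kept cells with at least 1000 UMIs and 1000 genes and transferred classes from an earlier atlas by the nearest 3 neighbours. Deposited totals and matrix sums differed by up to 197 UMIs in a cell. No fold changes or p-values of the authors were used, and 2 columns of the cell table were not used.

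UMIs were summed over the cells of a class and library and divided by their total (CPM). Exact Poisson intervals were given for CPM, exact conditional binomial intervals for ratios and Clopper-Pearson intervals for shares, all at 95% and for counting error only. No test was made, since each genotype had a single library. Ratios were computed for genes with at least 100 UMIs, and list members with at least 20. A floor of 3 UMIs stood for 0 in a fold. For shares, cells were thinned to 5000 UMIs. IAC were clustered on 10 principal components of 1000 variable genes, without sex-linked, mitochondrial, S phase and mitosis genes, into 4 groups. No doublet caller was run, and leaving out the 5% of cells with the most UMIs was an alternative. The ratio calculation was tested on simulated data. Promoters came from RefSeq (GRCm38.p6).

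Genes named were the markers, the 12 highest and lowest between genotypes, the 15 highest and lowest in IAC against HE, the 15 highest over the next class, the 5 most abundant and the highest and lowest members of each list, the 10 leading genes of each sub-cluster, and genes the study named. Fos, Egr1, Hspa1a, Ikzf1, Hlf, Mecom, Pecam1, Mki67, Csf3r, Was, Fli1, Irf8 and Tal1 were added after their values were seen. Members and lists were chosen with earlier results of these data known. Alternatives changed the scaling (edgeR 4.0.16 and DESeq2 1.42.0 factors), depth, minimum UMIs and the cells included. Python 3.11.15, numpy 2.4.6, scipy 1.17.1, pandas 2.3.3, matplotlib 3.10.9 and R 4.3.3 were used. Some results are not reported here.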

Additional observations from a re-analysis of the deposited data

Results flagged for a closer look

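The 202 named genes with at least 20 UMIs in both IAC and HE were searched, and for 12 of them the counting intervals of the SP3-null over wild-type ratio lay on opposite sides of 0 in IAC and HE. The difference between the classes was not tested, and the intervals cover counting error only. In IAC and HE respectively, the log2 ratios were -2.34 and 0.75 for Sox11, -0.22 and 0.44 for Ctla2a, -0.21 and 0.74 for Angpt1, and -0.41 and 0.27 for Jund. They were 0.18 and -0.19 for Cdh5, 0.072 and -0.065 for Tmsb4x, 0.10 and -0.22 for Dut, 0.031 and -0.16 for mt-Cytb, and 0.18 and -0.22 for Nop10. Fos (-0.82 and 1.01), Egr1 (-0.63 and 1.47) and Hspa1a (-0.34 and 2.28) were looked at after their values were seen.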

How the results depend on the processing

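Against 12 genes 2-fold higher and 17 lower in SP3-null IAC, there were 26 and 65 with at least 50 UMIs, 4 and 7 with at least 200, and 571 and 746 with 1 UMI in each library. Cells thinned to equal depth, with fewer genes past the minimum, gave 0 and 1, and left 102 and 128 genes higher and lower than in HE in the wild type, 116 and 133 in the SP3-null library and 8 genes highest in IAC (83 in the whole data). With at least 200 UMIs the counts against HE were 193 and 293, and 197 and 315. Without the 5% of cells with the most UMIs 21 genes were higher and 11 lower, Y-only cells gave 23 higher, and leaving out the 3 top cells of each gene gave 45 lower. Leaving out cells with macrophage or neural UMIs, or with macrophage UMIs only, gave 5 higher each. The largest sub-cluster gave 7 and 26, and the second 5 higher. These last settings, macrophage UMIs only and the sub-clusters, were chosen after seeing the data.

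Of 38 lists, 8 had an interval above 0 and 15 below. TMM and DESeq2 factors gave 13 above, thinned cells 5 above and 5 below, the second sub-cluster 5 above, and Xist-only cells or leaving out the deepest cells 8 below.

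Of genes past 2-fold and of list sums with an interval off 0, these ratios changed sign, and the cause was not tested. Without macrophage or neural UMIs, Ccl4 was -0.35, Csf1r -0.17, and the lists macrophage -0.28, pan-endothelial 0.11, venous 0.037, basement membrane 0.16 and contractile 0.022. Without macrophage UMIs only, Ccl4 was -0.20, Csf1r -0.37, macrophage -0.36 and heart and skeletal muscle -0.089. In the largest sub-cluster Ccl4 was -1.78, Csf1r -0.78, Rgs1 -0.46, macrophage -0.93, heart and skeletal muscle -0.13, stem cell regulators 0.023, S phase -0.015 and mitosis 0.17. In the second, Ccl4 was -0.088, macrophage -0.65, G1 -0.013, neural 0.23 and flow response 0.082. In Xist-only cells Stmn2 was 0.14, Rgs1 -0.14, S phase -0.11, mitosis 0.13, mitochondrially encoded 0.042, neural 0.0044 and Xist 0.095. In Y-only cells arterial was -0.22, contractile 0.037 and G1 -0.0095. Without its 3 top cells C1qa was -0.57. Thinned, mitosis was 0.020 and flow response 0.0027, and with each cell weighted alike S phase was -0.0100. Of the other values, 2555 for named genes and 341 for lists moved by less than their counting interval, and 586 and 124 moved by more. These include sign changes of genes within 2-fold: of 83 such genes with an interval off 0, 47 changed sign under at least 1 alternative (81 values), among them Klf2, Ifitm3 and Cdkn1c. Weighting cells alike gives no interval and so no list count, and the X- and Y-linked lists have no value in cells chosen for lacking them. No paired analysis was possible because each genotype had 1 library.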
